A study of Mus musculus with 6 samples.

Results

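Genes that mark dendritic cell subsets were followed in the RNA of sorted adipose tissue macrophages. The set held 9 genes, chosen by symbol: Flt3, Zbtb46, Xcr1, Clec9a, Batf3, Irf8, Siglech, Fscn1 and Cd83. All 9 were found in the deposited table of 23946 gene symbols, and all 9 were among the 13064 genes called expressed, whose FPKM was 1 or more in any library. FPKM, fragments scaled to transcript length and to sequencing depth, is a level per length, so levels of different genes may be set side by side.

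The cells came from the omentum (OM) and the mesentery (MY) of female C57BL/6 mice, given in the methods as 6 to 8 weeks old, and the labels name no transgene or deletion. Tissue was taken from naive mice without ID8 injection, 24 h after ID8 injection and 7 d after it. The ID8 line derives from ovarian surface epithelium of C57BL/6 mice and was placed in the peritoneal cavity. The sort was for CD45+CD11b+F4/80+ cells, and the series text describes 9 mice handled in groups of 3. Per the study's description of these samples, each was macrophages of 3 animals combined, so the spread between animals is not measured. Each of the 6 combinations of tissue and time had 1 library. No tissue and time has a replicate. The 3 times of a tissue are different conditions and were not treated as replicates of it, no test was run, and each difference describes a pair of libraries.

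Dendritic cells take up antigen in tissues and carry it to lymph nodes, where they present it to T cells. Conventional dendritic cells develop under the FLT3 receptor and express the transcription factor ZBTB46. They divide into cDC1, which depend on IRF8 and BATF3 and carry XCR1 and CLEC9A, and cDC2, which share CD11b with macrophages. Plasmacytoid dendritic cells, the main source of type I interferon, carry Siglec-H in the mouse. Dendritic cells of any subset that mature and migrate gain CD83 and the actin-bundling protein fascin, the product of Fscn1. In adipose tissue, and in the leukocyte clusters of the omentum called milky spots, they lie beside macrophages. A gate on CD11b and F4/80 is not expected to retain cDC1 or plasmacytoid cells, which carry little of either protein.

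The libraries were mixed: genes of macrophages and of other cell types were expressed in each. Emr1, the gene of F4/80, had an FPKM of 27.4 in OM naive, 135.0 in OM 24 h and 26.5 in OM 7 d, and of 20.5, 68.6 and 37.5 in the mesenteric libraries in the same order. OM 24 h stood apart: the summed FPKM of 11 macrophage genes was 13908 there and 1412 to 3525 in the other 5 libraries. Cd74, a gene of antigen presentation, was listed at 0 in OM 24 h and at 11323 or more elsewhere, so a value of 0 in this table can be a failed estimate. No member was listed at 0 in any library. Estimated depth ranged from 0.853 (OM naive) to 1.49 (OM 7 d) times that of MY naive, and the read count behind a value is not known. In bulk samples, fewer cells of a type and less RNA per cell cannot be told apart.

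To show what the members share outside their levels, the RefSeq promoter windows of 8 of the 9 genes (250 bases before to 50 after the start, all but that of Cd83) were searched on both strands for 4 motifs. The composite BATF-IRF motif called AICE was searched in a short form, TTTC and TGA with any 4 bases between them. This form, which leaves out the rest of the AP-1 part, occurred in 2 of the 8 genes and in 4.56% of 32851 mouse promoter windows. The 2 genes were Xcr1 and Clec9a, the surface receptors of cDC1. Neither of their windows held the AP-1 motif TGANTCA, so neither match is a full AICE. The interferon-stimulated motif, GAAA and GAAA with any 2 bases between them, was in none of the 8 (3.44% of all windows). The PU.1 core GAGGAA was in Batf3 and Siglech (28.3%) and the AP-1 motif TGANTCA in Zbtb46 (7.81%). The Zbtb46 window, chr2:181159044-181159343, lies inside the gene's annotated span and not at its 5′ end (181194131 on the minus strand). No match overlapped another. The 250 bases before the start are given for the cDC1 receptors and for the 2 genes with the widest tissue difference, placed on NCBIM37 (mm9) by exact match and written 5′ to 3′ on the gene's strand. Xcr1 lies on the minus strand at chr9:123771247-123771496, Clec9a on the plus strand at chr6:129358630-129358879, Siglech on the plus strand at chr7:63023304-63023553 and Fscn1 on the plus strand at chr5:143721784-143722033. Capitals mark the short-form AICE match in Xcr1 (reverse strand, first base 127 before the start) and in Clec9a (forward strand, first base 64 before the start). In Siglech they mark the first 4 bases of a reverse-strand PU.1 core that runs past the start. The Fscn1 window held none of the 4 motifs.
Xcr1: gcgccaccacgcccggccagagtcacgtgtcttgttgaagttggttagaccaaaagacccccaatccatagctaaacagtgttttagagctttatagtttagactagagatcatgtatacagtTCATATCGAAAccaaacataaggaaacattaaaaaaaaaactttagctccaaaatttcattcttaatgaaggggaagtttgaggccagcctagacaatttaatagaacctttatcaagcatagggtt
Clec9a: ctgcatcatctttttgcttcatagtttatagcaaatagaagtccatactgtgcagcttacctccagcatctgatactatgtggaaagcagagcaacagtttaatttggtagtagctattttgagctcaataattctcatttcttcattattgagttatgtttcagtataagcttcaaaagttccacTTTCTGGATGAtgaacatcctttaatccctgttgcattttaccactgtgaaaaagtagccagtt
Siglech: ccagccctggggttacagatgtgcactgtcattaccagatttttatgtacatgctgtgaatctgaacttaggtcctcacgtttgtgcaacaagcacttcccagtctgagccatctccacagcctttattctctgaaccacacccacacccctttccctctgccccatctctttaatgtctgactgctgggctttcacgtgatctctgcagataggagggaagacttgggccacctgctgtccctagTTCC
Fscn1: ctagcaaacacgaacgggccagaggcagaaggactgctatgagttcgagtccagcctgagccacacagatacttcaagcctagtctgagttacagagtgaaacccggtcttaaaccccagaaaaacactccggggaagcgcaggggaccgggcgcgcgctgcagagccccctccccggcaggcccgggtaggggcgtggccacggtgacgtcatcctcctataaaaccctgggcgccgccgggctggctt
A match is a run of letters and not a measured binding site, and no binding data were part of the series.

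Across the 9 genes, the mesentery had the higher level of Siglech and Fscn1 by a wide margin at every time, and of Flt3 to a lesser degree. Batf3 and Xcr1 were not 2-fold apart between the tissues at any time. After ID8 injection, the genes Flt3, Zbtb46, Clec9a, Siglech and Cd83 had lower values in the omentum at 24 h and higher values in the mesentery at 24 h. The plot of levels by library shows all 54 values.

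**Figure D1:**
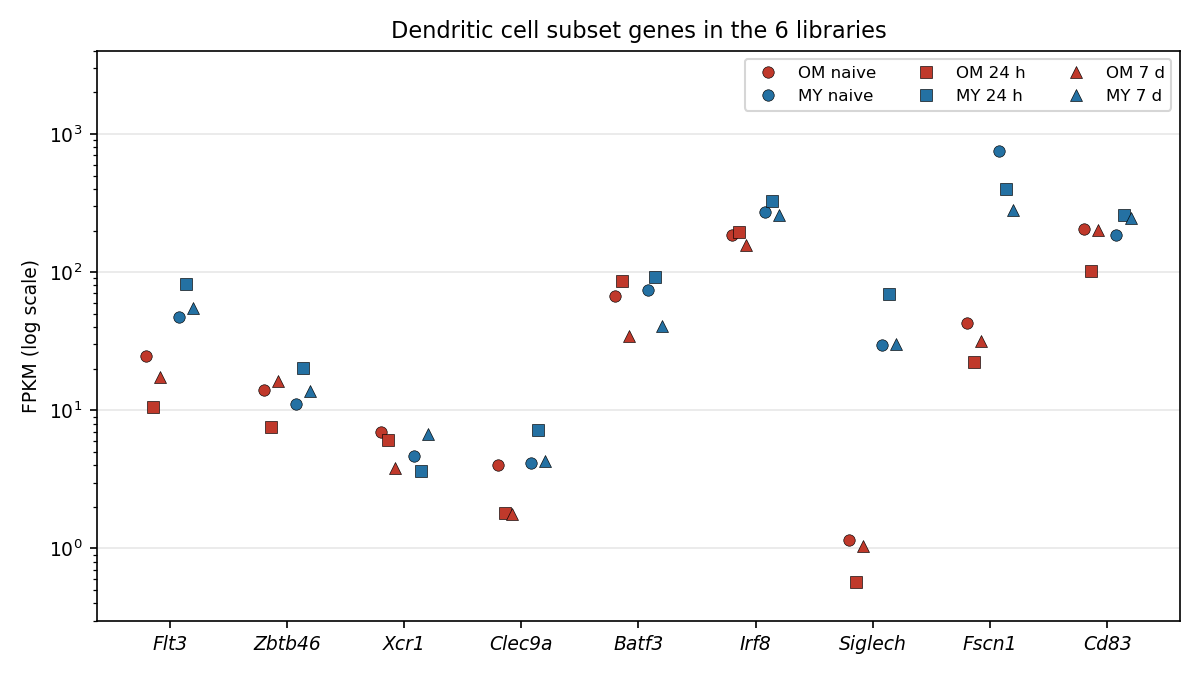
FPKM (log scale) of the 9 genes in the 6 libraries, with omental libraries in red and mesenteric libraries in blue, circles for naive, squares for 24 h and triangles for 7 d, 1 library per point and no replicates. Siglech lies near 1 in the omentum and at 29.9 to 68.9 in the mesentery, Fscn1 at 22.4 to 43.0 and 280.4 to 758.7, while the tissues overlap for Zbtb46, Xcr1, Batf3 and Cd83.

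Flt3 encodes the cytokine receptor on which conventional and plasmacytoid dendritic cells depend. The gene lies on the minus strand of chromosome 5 (mm9, 148142317 to 148212065), and a lincRNA, Gm17398, is annotated on the other strand. Its FPKM was 24.6 in OM naive, 10.5 in OM 24 h and 17.6 in OM 7 d, and 47.2 in MY naive, 81.5 in MY 24 h and 54.8 in MY 7 d. Omental and mesenteric libraries did not overlap, and the lowest and the highest values were those of the 2 libraries taken at 24 h. On the log2(FPKM + 1) scale, which understates differences of low genes, the omentum minus the mesentery gave -0.91 in the naive pair, -2.84 at 24 h and -1.59 at 7 d. Among the expressed genes, Flt3 ranked above 84.3% in MY naive and above 71.5% in OM naive.

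Zbtb46 encodes a transcription factor of conventional dendritic cells that monocytes and most macrophages lack. It lies on the minus strand of chromosome 2 (181122467 to 181194131). Its FPKM was 13.95, 7.59 and 16.3 in OM naive, OM 24 h and OM 7 d, and 11.2, 20.3 and 13.7 in MY naive, MY 24 h and MY 7 d. The tissues overlapped. The omental value was above the mesenteric one in the naive pair (0.30) and at 7 d (0.24), and below it at 24 h (-1.31). Endothelial cells also express Zbtb46. The sum of 7 endothelial genes was 43.8, 10.3 and 36.3 in the omentum and 39.7, 51.7 and 50.2 in the mesentery, most of it Pecam1, which leukocytes also express (8.85 to 45.2). Of the others, Cdh5 and Tek stayed below 1, and Kdr, Egfl7, Cldn5 and Tie1 reached at most 4.53, 4.55, 2.77 and 1.03. The endothelial sum, like Zbtb46, was lowest in OM 24 h and highest in MY 24 h, and its part in the values of Zbtb46 was not tested.

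Xcr1, on the minus strand of chromosome 9 (123761436 to 123771246), encodes the receptor for the chemokine XCL1 and is among the most specific cDC1 genes. Its FPKM was 7.01, 6.09 and 3.81 in OM naive, OM 24 h and OM 7 d, and 4.65, 3.63 and 6.74 in MY naive, MY 24 h and MY 7 d. The tissues overlapped, and the 6 values spanned 1.93-fold, the narrowest span of the 9 genes. The difference between the tissues was 0.50 in the naive pair, 0.62 at 24 h and -0.68 at 7 d. Of 4379 windows of 75 bases in its transcript, 13 also occurred in coding transcripts of other genes, so few of its reads could be shared.

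Clec9a, on the plus strand of chromosome 6 (129358880 to 129374780), encodes the receptor by which cDC1 sense dead cells. Its annotated span overlaps Clec1b on the same strand and Clec1a on the other, so reads in the overlap may be assigned to either gene. Its FPKM was 3.99, 1.82 and 1.77 in OM naive, OM 24 h and OM 7 d, and 4.14, 7.18 and 4.26 in MY naive, MY 24 h and MY 7 d. The tissues did not overlap, but the margin between OM naive and MY naive was small (log2 difference -0.04). The difference was -1.54 at 24 h and -0.92 at 7 d. Xcr1 was above Clec9a in every library except MY 24 h, where it was below (3.63 and 7.18).

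Batf3 and Irf8 encode the transcription factors of the cDC1 lineage, and both are also active outside it. IRF8 is active in monocytes, B cells and plasmacytoid dendritic cells, among other cells, and BATF3 in other activated leukocytes. Batf3 lies on the plus strand of chromosome 1 (192922293 to 192932822). Its FPKM was 67.2, 86.1 and 34.2 in OM naive, OM 24 h and OM 7 d, and 74.1, 92.1 and 40.7 in MY naive, MY 24 h and MY 7 d. The order of the times was the same in the tissues, with the 24 h library highest and the 7 d library lowest. The tissue difference was -0.14, -0.10 and -0.24 at the 3 times, while 7 d minus 24 h was -1.31 in the omentum and -1.16 in the mesentery.

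Irf8, on the plus strand of chromosome 8 (123260258 to 123280594), shares its strand and part of its span with the annotated gene Gm20388. Its FPKM was 185.3, 193.8 and 156.2 in OM naive, OM 24 h and OM 7 d, and 270.1, 326.1 and 260.8 in MY naive, MY 24 h and MY 7 d. The tissues did not overlap, with differences of -0.54, -0.75 and -0.74 that stayed short of 2-fold. Irf8 ranked above 95.7% or more of the expressed genes in every library, well above Xcr1 and Clec9a, whose ranks ran from 14.9% to 43.5%.

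Siglech, on the plus strand of chromosome 7 (63023548 to 63034295), encodes the lectin used to identify mouse plasmacytoid dendritic cells. It had the widest tissue difference of the 9 genes. Its FPKM was 1.15, 0.574 and 1.03 in OM naive, OM 24 h and OM 7 d, and 29.9, 68.9 and 30.1 in MY naive, MY 24 h and MY 7 d. Every omental value was near or below 1, and every mesenteric value was at least 29.9. The FPKM ratio of mesentery over omentum was 26.1 in the naive pair, 120.0 at 24 h and 29.1 at 7 d, and the difference on the log2(FPKM + 1) scale was -3.85, -5.47 and -3.94. The omental values are low, so the ratios are uncertain. In the naive pair 0.245% of the expressed genes had a lower difference.

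Fscn1, on the plus strand of chromosome 5 (143722022 to 143734864), encodes fascin, which bundles actin in the long processes of mature dendritic cells and is scarce in macrophages. Its FPKM was 43.0, 22.4 and 31.5 in OM naive, OM 24 h and OM 7 d, and 758.7, 399.9 and 280.4 in MY naive, MY 24 h and MY 7 d. The tissues were far apart at each time, with mesentery over omentum ratios of 17.6, 17.9 and 8.89 and log2 differences of -4.11, -4.10 and -3.11. In MY naive Fscn1 ranked above 99.6% of the expressed genes and had the highest level of the 9. It was also the one member that stood lower at both times after injection in the mesentery, by a log2 difference of -0.92 at 24 h and -1.43 at 7 d.

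Cd83, on the plus strand of chromosome 13 (43880476 to 43898499), encodes a surface protein of mature dendritic cells and of activated B cells. Its FPKM was 204.4, 101.4 and 202.2 in OM naive, OM 24 h and OM 7 d, and 185.4, 260.9 and 246.5 in MY naive, MY 24 h and MY 7 d. The tissues overlapped, and OM 24 h was the low library. The difference was 0.14 in the naive pair, -1.35 at 24 h and -0.28 at 7 d, and the first of these turned to -0.10 when every library was scaled to sum to 1000000. Cd83 and Fscn1, both genes of maturation, therefore differed in their tissue pattern.

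Counted over the set, 2 of 9 genes were at least 2-fold lower in OM naive than in MY naive (Siglech and Fscn1) and 0 were higher, against 8.05% and 8.18% of all expressed genes (16.2% in either direction). At 24 h, 6 of 9 were lower in the omentum (Flt3, Zbtb46, Clec9a, Siglech, Fscn1 and Cd83) and 0 were higher, against 10.2% and 13.9% (24.1% in either direction). At 7 d, 3 of 9 were lower (Flt3, Siglech and Fscn1) and 0 were higher, against 4.99% and 14.1% (19.1% in either direction). The median tissue difference of the 9 genes was -0.14, -1.35 and -0.74 at the 3 times, and that of all expressed genes was 0.01, 0.00 and -0.01. Siglech and Fscn1 were at least 2-fold lower in the omentum at all 3 times, as were 3.00% of the expressed genes. The 9 genes were chosen with earlier results of these data known, and the counts describe them only.

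For 5 of the 9 genes, Flt3, Clec9a, Irf8, Siglech and Fscn1, every omental library was below every mesenteric one, against 17.7% of the expressed genes, and for 0 genes it was the reverse (16.7%, or 34.4% in either direction). The same 5 remained without OM 24 h (22.2% of the expressed genes). After division by Ptprc, the gene of CD45, 3 remained (Flt3, Siglech and Fscn1), against 5.83%. On the log2 scale of these ratios, Flt3 was no longer 2-fold lower at 7 d (-0.90), nor Zbtb46 (-0.85) and Cd83 (-0.79) at 24 h, and Xcr1 was higher in the omentum at 24 h (1.32). Division by Emr1, an alternative added after the data were seen, left the same 3, against 5.05%. The ratio of Flt3 to Emr1 was 0.897, 0.0779 and 0.662 in OM naive, OM 24 h and OM 7 d, and 2.30, 1.19 and 1.46 in MY naive, MY 24 h and MY 7 d.

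**Figure D2:**
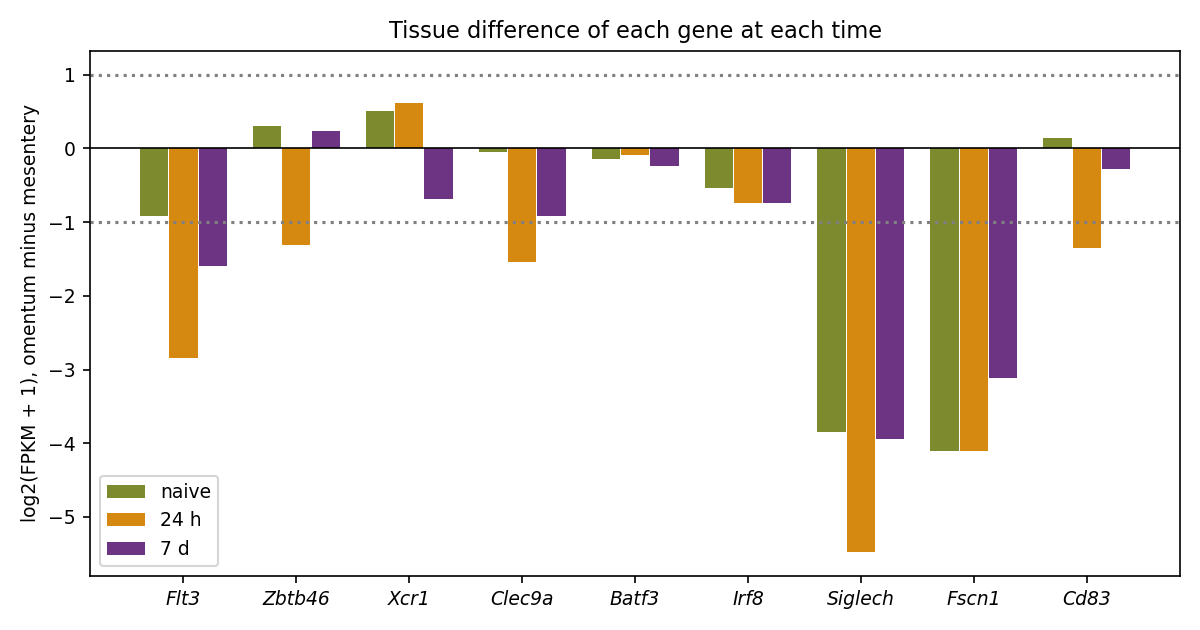
Difference of log2(FPKM + 1), omentum minus mesentery, for each gene in the naive pair, at 24 h and at 7 d, with 1 pair of libraries per bar, no error bars and dotted lines at 2-fold. Siglech and Fscn1 lie beyond -3.1 at every time, and 6 genes lie beyond the lower line at 24 h.

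After ID8 injection the changes were smaller than the tissue differences of Siglech and Fscn1. In the omentum, 2 of 9 genes were at least 2-fold lower at 24 h than in the naive library, Flt3 (-1.15) and Cd83 (-1.004), and 0 were higher, against 6.45% and 11.9% of the expressed genes (18.3% in either direction). The value of Cd83 lay at the threshold and was -0.97 after the median-ratio rescaling. Zbtb46 (-0.80), Clec9a (-0.83) and Fscn1 (-0.91) were lower by less than 2-fold. In the same comparison 10 of 11 macrophage genes were at least 2-fold higher, and 10 of 10 B cell, 8 of 8 NK cell and 6 of 7 T cell genes were at least 2-fold lower. The part of these cells in the lower values was not tested. At 7 d, 0 of 9 genes were 2-fold apart from OM naive, against 11.0% higher and 1.96% lower of the expressed genes (12.9% in all), and the largest difference was that of Batf3 (-0.95). The changes at 24 h and at 7 d share the naive library.

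In the mesentery, 1 gene was at least 2-fold higher at 24 h, Siglech (1.18), and 0 were lower, against 2.80% and 1.52% of the expressed genes (4.32% in either direction). Flt3 (0.78), Zbtb46 (0.81) and Clec9a (0.67) were higher by less than 2-fold. Of the 11 macrophage genes, 8 were at least 2-fold higher in MY 24 h as well (median 1.32), and their part was not tested. At 7 d Siglech was back near its naive value (0.01), and 1 gene was lower, Fscn1 (-1.43), against 2.29%, with 0 higher (0.498%, or 2.79% in either direction). From 24 h to 7 d, Batf3 (-1.16) and Siglech (-1.17) were at least 2-fold lower in the mesentery and 0 were higher, against 3.54% and 1.84% (5.37% in either direction). In the omentum over the same interval Batf3 was lower (-1.31, against 4.52%) and Zbtb46 was higher (1.01, against 7.03%, or 11.5% in either direction).

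**Figure D3:**
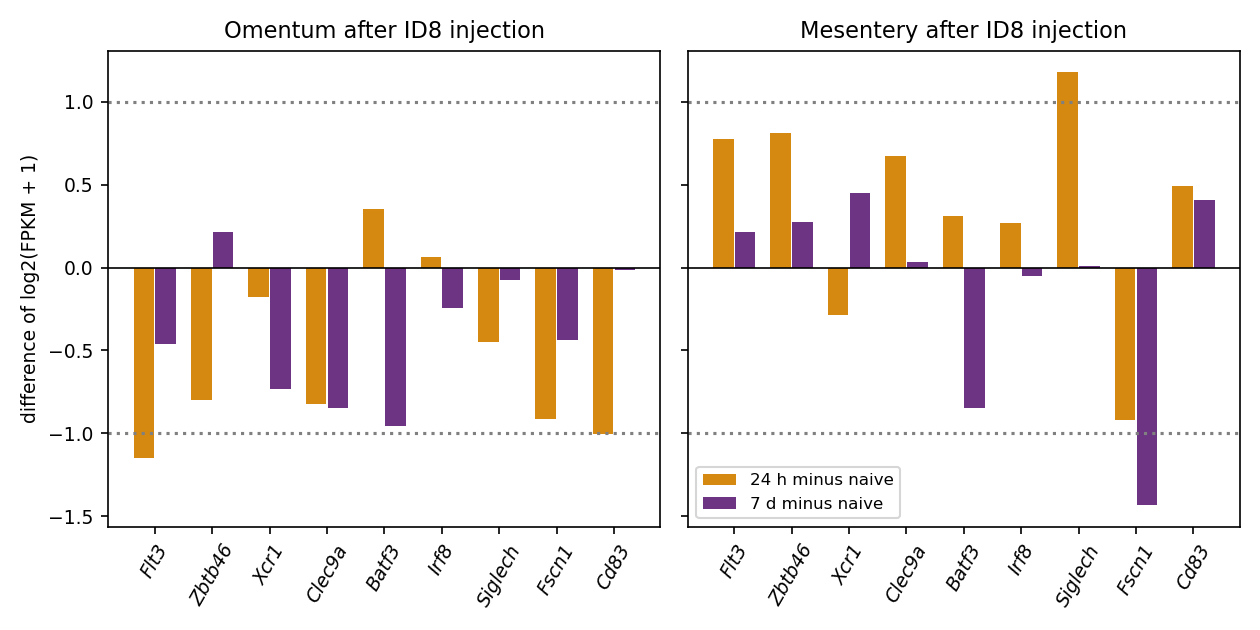
Difference of log2(FPKM + 1) from the naive library of the same tissue at 24 h and 7 d for each gene, omentum on the left and mesentery on the right, with 1 library per time, no error bars and dotted lines at 2-fold. Flt3, Zbtb46, Clec9a, Siglech and Cd83 lie below 0 in the omentum and above 0 in the mesentery at 24 h, and Fscn1 lies below 0 in each panel.

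The wider dendritic cell programmes were read from lists written by symbol, with each gene counted as called at 2-fold. These lists were written with earlier results of these data known, so their counts and medians are descriptions only. Of 20 genes of mature and migratory dendritic cells, none of them a member, 10 were lower in the omentum in the naive pair, 12 at 24 h and 11 at 7 d, and 2, 1 and 3 were higher. Among all expressed genes, 8.05%, 10.2% and 4.99% were lower and 8.18%, 13.9% and 14.1% higher. The list medians were -1.46, -2.09 and -1.38. At all 3 times 10 of the 20 were at least 2-fold lower, beside 3.00% of the expressed genes: Ccr7, Ccl22, Cacnb3, Socs2, Relb, Il4i1, Nudt17, Apol7c, Zmynd15 and Tbc1d4. Apol7c had the lowest mean difference (-6.10), with an FPKM of 8.26 to 14.1 in the omentum and 604.4 to 1144 in the mesentery. Ccr7, the receptor that guides these cells to lymph nodes and a gene picked here after its values were seen, had an FPKM of 93.8, 49.2 and 115.7 in the omentum and 526.0, 760.7 and 660.5 in the mesentery. T cells also express Ccr7. Cd80 went the other way, with a mean difference of 1.26. It was the 1 gene of the list that was 2-fold higher in the omentum at all 3 times (3.93% of the expressed genes). The costimulatory genes Cd40 and Cd86, also picked after their values were seen, stayed within 2-fold at every time.

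The plasmacytoid list did not follow Siglech. Of its 14 other genes, 6, 3 and 0 were higher in the omentum at the 3 times and 3, 3 and 3 were lower, beside 8.18%, 13.9% and 14.1% (higher) and 8.05%, 10.2% and 4.99% (lower) of the expressed genes. The median difference was 0.20, 0.28 and 0.04. Ccr9, a homing receptor also found on T cells, and Cd300c were at least 2-fold lower at all 3 times, beside 3.00% of the expressed genes. Cd300c, which stood at 0.576, 0.195 and 0.36 in the omentum and at 4.58, 13.05 and 4.33 in the mesentery, had the lowest mean difference (-2.45). Ly6d had the highest (1.51), with 2117 in OM naive and 339.0 in MY naive. B cells express Ly6d and Spib as well, and the summed FPKM of 10 B cell genes was 4291, 965.3 and 2634 in OM naive, OM 24 h and OM 7 d and 937.1, 611.1 and 1781 in the mesenteric libraries. The part of B cell RNA in this list was not tested.

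Of 13 measured cDC1 genes beside the members, 4, 6 and 6 were lower in the omentum at the 3 times and 3, 1 and 1 were higher, with medians of -0.30, -0.49 and -0.97. Of all expressed genes, 8.05%, 10.2% and 4.99% were lower and 8.18%, 13.9% and 14.1% higher. Cd8a had the lowest mean difference (-4.23), and it is a T cell gene in most tissues: the 7 measured T cell genes summed to 149.1, 29.8 and 143.7 in the omentum and to 1200, 684.1 and 1415 in the mesentery. All 7 were at least 2-fold lower in the omentum at all 3 times, as were 3.00% of the expressed genes. Naaa, an enzyme gene that macrophages also express, had the highest mean difference (1.32). Of 12 expressed genes shared by conventional dendritic cells, 2, 7 and 2 were lower and 2, 0 and 0 were higher, with medians of -0.45, -1.25 and -0.83. Bcl11a, also a B cell gene, had the highest mean difference (0.71).

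The cDC2 list had the opposite lean. Of 12 genes, 7, 5 and 5 were higher in the omentum at the 3 times and 2, 2 and 2 were lower, with medians of 1.19, 0.69 and 0.37. The shares of all expressed genes were 8.18%, 13.9% and 14.1% higher and 8.05%, 10.2% and 4.99% lower. Monocyte genes leaned the same way: of 8, 5 were 2-fold higher at all 3 times, and their sum was 1915 to 2474 in the omentum and 558.1 to 747.7 in the mesentery. Their part in the cDC2 values was not tested. Cd209a, Mgl2, Clec10a and Klf4 were 2-fold higher at all 3 times, as were 3.93% of the expressed genes. Mgl2, a lectin gene of cDC2 that tissue macrophages also express, had the highest mean difference (4.60), with an FPKM of 127.4, 149.6 and 57.4 in the omentum and 2.25, 4.54 and 3.38 in the mesentery. Clec4a4 had the lowest (-1.83).

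**Figure D4:**
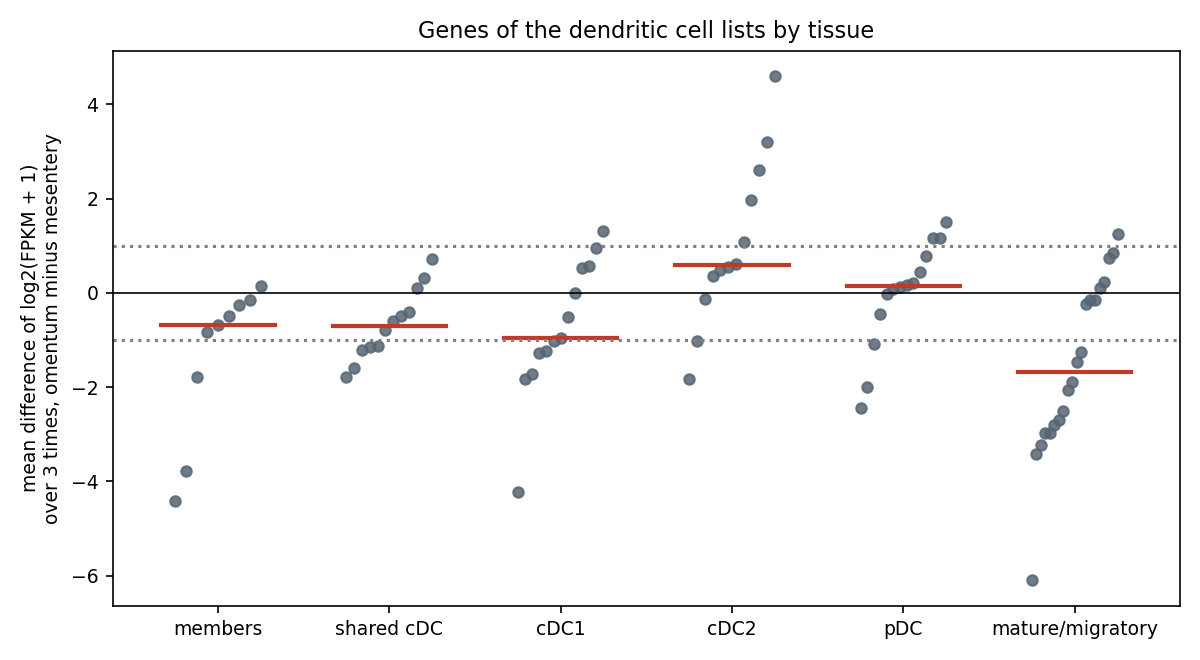
Mean over the 3 times of the difference of log2(FPKM + 1), omentum minus mesentery, for the 9 members and for the expressed genes of 5 dendritic cell lists, 1 point per gene, with the list median as a red bar and dotted lines at 2-fold. The mature and migratory list has its median at -1.68 and the cDC2 list at 0.59, beside 0.01 for all expressed genes.

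The ligands and partners of the members were read as well. Flt3l, the ligand of FLT3, had an FPKM of 17.7, 7.08 and 11.0 in OM naive, OM 24 h and OM 7 d, and 41.3, 29.6 and 28.3 in MY naive, MY 24 h and MY 7 d. Ligand and receptor were each lower in every omental library than in every mesenteric one, as were 17.7% of the expressed genes. T and NK cells produce Flt3l, and their genes were also higher in the mesentery, so the part of those cells was not tested. Xcl1, the ligand of XCR1 and a product of NK and T cells, stood at 30.8, 0.532 and 37.7 in the omentum and at 87.3, 35.2 and 26.1 in the mesentery. Its low value in OM 24 h lay beside the lowest NK sum, 20.8 for 8 genes, against 154.5 to 1793 in the other libraries.

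Among the factors that pair with IRF8, Spi1, which encodes PU.1, was 377.1, 663.8 and 344.9 in the omentum and 404.5, 692.2 and 402.7 in the mesentery, and was highest at 24 h in each tissue. Batf was 44.1 to 47.2 in the omentum and 50.7 to 56.97 in the mesentery. Batf2 was between 1.45 and 7.97 in all libraries. Bcl6 was between 7.33 and 16.8 and Ikzf1 between 14.5 and 51.4. Jun and Junb, the AP-1 partners of BATF factors, were higher in the omentum by 3.38 to 3.60 and by 2.86 to 3.34, and Nfil3, needed for cDC1 development, by 1.16 to 2.55. Jun belongs to the genes induced by tissue dissociation, and all 8 genes of that list were 2-fold higher in the omentum at all 3 times, as were 3.93% of the expressed genes.

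Of the signalling genes, Syk, the kinase below CLEC9A, was 180.5, 59.4 and 86.3 in the omentum and 52.8 to 56.5 in the mesentery. Tyrobp, the adaptor of Siglec-H, was 970.0 to 2352 and 745.0 to 1455, so it did not share the tissue difference of Siglech. Csf2ra was 100.5 to 320.8 in the omentum and 71.5 to 135.3 in the mesentery, and Csf2rb 50.8 to 54.6 and 61.8 to 107.3. Csf2, their ligand, was listed at 0 in OM naive and reached at most 1.03 elsewhere.

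For the members whose log2(FPKM + 1) ranged over at least 2, the genes with the most similar profile across the 6 libraries were sought among 9934 genes that reached an FPKM of 5 in some library, by the root mean square difference of profiles centred on their mean. The nearest to Flt3 (range 2.84) were Tmem123 (0.17), Clec4a4 (0.18) and Zfp366 (0.22). Tmem123 (mature and migratory) and Clec4a4 (cDC2) were on the lists above, and Zfp366 encodes a zinc finger protein known from dendritic cells. The nearest to Siglech (range 5.47) were Lad1 (0.26), Apol10b (0.29) and Fabp1 (0.37), and those of Fscn1 (range 5.02) were Gm11346 (0.37), Apol7b (0.38) and Cox4i2 (0.44). Each of these 6 was near or below 3 in the omentum and at 7.86 or more in the mesentery, and Fabp1 was listed at 0 in OM naive. With 6 libraries of 6 conditions, a likeness is a description.

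In the order of levels, Fscn1 led in the 3 mesenteric libraries, followed by Irf8, while in the omentum Cd83 led in OM naive and OM 7 d and Irf8 in OM 24 h. Clec9a and Xcr1 were below every other member in the mesenteric libraries, and Siglech was below every other member in the omental ones. Neighbours in these orders cannot be separated without replicates.

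Genes of other cells differed between the tissues as well. The NK sum was 20.8 to 297.1 in the omentum and 749.7 to 1793 in the mesentery. Of the 8 genes, 7 were at least 2-fold lower in the omentum at all 3 times, beside 3.00% of the expressed genes. The neutrophil sum (7 genes) was 5932 to 14615 in the omentum and 242.4 to 682.6 in the mesentery. Fibroblast genes (6) summed to 221.5 to 1190 and to 2.08 to 3.10, and mesothelial and epithelial genes (8) to 99.3 to 1016 and to 0.92 to 1.32. The T and NK sums, like Siglech and Fscn1, were lower in every omental library than in every mesenteric one. The part of T and NK cells in the tissue differences of Siglech and Fscn1 was not tested.

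**Figure D5:**
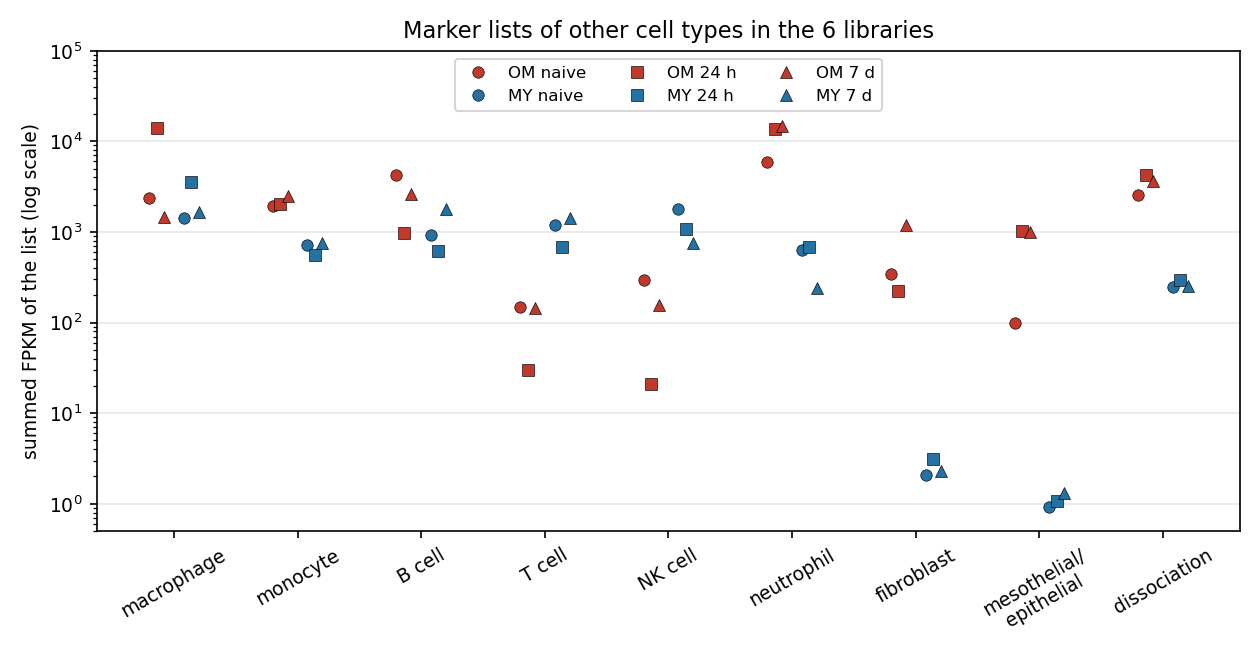
Summed FPKM (log scale) of marker lists of other cell types and of dissociation genes in the 6 libraries, with omental libraries in red and mesenteric in blue, circles for naive, squares for 24 h and triangles for 7 d. T and NK cell sums are lower in every omental library, neutrophil, fibroblast and mesothelial sums are higher, and the macrophage sum of OM 24 h (13908) stands above that of the other 5 libraries.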

How the data were processed

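RNA of sorted CD45+CD11b+F4/80+ cells was sequenced from 6 samples, 1 library each. Per the submitters' notes and methods, FastQC 0.11.4 served for read quality and STAR 2.4.2a for alignment to mm9, and the authors deposited FPKM per gene symbol from Cufflinks. Whether the library kit kept strand is not given in the sources used here. FPKM holds no read counts, so no count model was used.

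From the FPKM, differences of log2(FPKM + 1) were computed with Python 3.11.15, numpy 2.4.6 and pandas 2.3.3, and plotted with matplotlib 3.10.9. A gene was taken as expressed where any library had an FPKM of 1 or more, and differences of 2-fold were counted. Alternatives were other pseudocounts, thresholds, rescalings and filters. The calculation alone was checked on made-up values of 13064 genes in 2 libraries, where 200 of 200 changed genes were found with 0 false calls. How often 2-fold calls between the sequenced libraries are in error was not tested, since no tissue and time has a replicate. Relative depth was the commonest ratio of FPKM values below 0.1. The members and lists were chosen with earlier results of these data known. Named genes were the members, the genes of each dendritic cell list with the largest and smallest mean tissue difference (FPKM of at least 5), the ligands and partners, and the 3 nearest profiles; 1 gene that this rule selects is not reported here. Others were picked after their values were seen. Of all listed genes, 2 were not matched by symbol. Gene positions are from GENCODE M1 and promoter sequences from RefSeq (GRCm38.p6), matched to NCBIM37.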

Additional observations from a re-analysis of the deposited data

Results flagged for a closer look

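In 3 genes the change from the naive library to 24 h after ID8 injection went in opposite directions in the tissues, by at least 1.5-fold in each. For Flt3 the log2 difference was -1.15 (omentum) and 0.78 (mesentery). Zbtb46 had -0.80 and 0.81, and Clec9a had -0.83 and 0.67. Siglech (-0.45 and 1.18) and Cd83 (-1.004 and 0.49) also went in opposite directions, but each by less than 1.5-fold in 1 tissue on the log2(FPKM + 1) scale. The difference between the tissues was not tested, since each tissue and time has 1 library. No member did so at 7 d against naive. How many of all expressed genes meet the same rule was not counted, so the 3 genes describe the members only.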

How the results depend on the processing

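No paired analysis was possible because no result here comes from a test: the labels give 1 library per tissue and time and no replicate numbers. Of 750 values recomputed, 618 stayed within 1.5-fold, 132 moved beyond it and 0 of the 2-fold differences changed sign. The tissue differences of Siglech and Fscn1 stayed at least 2-fold at each time under both pseudocounts and both rescalings. Rescaling to a sum of 1000000 moved the median of all expressed genes most in OM 7 d against OM 24 h (0.36) and in OM 24 h against MY 24 h (-0.27). Small differences changed sign under rescaling: Irf8 at 24 h in the omentum (0.06 to -0.14) and Cd83 between the naive libraries (0.14 to -0.10).

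The number of genes of the 9 at least 2-fold apart depended on the threshold and the low-value settings. In OM 24 h against OM naive it was 2, but 0 with a pseudocount of 5, 1 after the median-ratio rescaling, 5 after rescaling to a sum of 1000000, 5 at 1.5-fold and 0 at 4-fold. In MY 24 h against MY naive it was 1, but 2 after rescaling to a sum of 1000000, 0 among genes at 1 or more in every library (which drops Siglech), 5 at 1.5-fold and 0 at 4-fold. In MY 7 d against MY naive it was 1, but 2 at 1.5-fold and 0 at 4-fold. In OM 7 d against OM naive it was 0, but 1 with a pseudocount of 0.1 and 3 at 1.5-fold. Between the tissues it was 2 in the naive pair but 1 among genes at 1 or more in every library, 6 at 24 h but 3 at 4-fold, and 3 at 7 d but 6 at 1.5-fold. The shares of all expressed genes under the main settings are given above. Of 72 such shares recomputed under the alternatives, 35 moved beyond 1.5-fold, so these counts describe the members only. For 5 genes, every omental library was below every mesenteric one (17.7% of the expressed genes). They became 3 relative to Ptprc (5.83%), and 3 relative to Emr1 (5.05%, added after the data were seen). They became 6 without the naive libraries (28.5%). FPKM limits depth statements: the reads behind the omental values of Siglech are unknown.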
